A study of Sus scrofa with 24 samples.

Results

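The ileum of sows that ate a low-fibre diet with N-carbamylglutamate (LN) was compared with the ileum of sows that ate the same low-fibre diet without it (LF). The comparison used the 6 libraries of the ileum read-count columns for these diets, 3 LN and 3 LF, out of 24 libraries in the series. N-carbamylglutamate (NCG) is a stable analogue of N-acetylglutamate, the obligatory activator of carbamoyl phosphate synthetase 1 (CPS1). In the pig small intestine CPS1 starts the synthesis of citrulline, from which arginine is made, so NCG is fed to raise the body's own arginine supply. In the gut wall, arginine is a precursor of nitric oxide and polyamines and a signal to the mTOR kinase, which sits downstream of PI3K and AKT.

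All animals were female pigs (Sus scrofa), and the diets ran from breeding through gestation to day 114. The low-fibre diet held 3.73% crude fibre, and LN sows received 0.05% NCG on top of it. The other 2 diets held 7.46% crude fibre with the same dose of NCG (HN) or without it (HF), and each diet was fed to 100 sows. Ileum and colon were sampled from each diet, with 3 RNA libraries each of polyadenylated RNA, and the labels do not say whether the 3 libraries of a diet came from different sows. The p-values below therefore measure the spread between libraries as labelled. The 6 libraries held between 13397821 and 19896941 reads counted to genes. Correlations of log2 values between libraries ran between 0.858 and 0.971 within LN and between 0.865 and 0.944 within LF.

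The libraries of one diet differed in make-up, and the differences touch many of the results below. FABP6, the ileal bile acid binding protein, had 0.2, 6.95 and 0.329 counts per 1000000 counted reads (CPM, normalised for library composition) in LN libraries 1, 2 and 3, against 8167, 0.464 and 0 CPM in LF libraries 1, 2 and 3. SLC10A2, the ileal bile acid transporter, had 0, 0 and 0 CPM in LN, against 218, 0 and 0.438 CPM in LF. Of the 6 libraries labelled ileum, LF 1 thus was the one with the bile acid genes that define the distal ileum, and in the other 5 they were at or near 0. GATA4, a factor of the more proximal small intestine that was picked out after its values were seen, ran the other way, with 160, 111 and 79.3 CPM in LN and 0.556, 96.3 and 75.6 CPM in LF. The colonic factor HOXA13 was at 0 in all 6 libraries. Of 13 epithelial markers 7 had positive and 6 negative log2 changes, with a median of 0.06.

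LN 3 and LF 3 also stood apart. The adipocyte markers summed to 182, 168 and 6819 CPM in LN and to 199, 124 and 256 CPM in LF, and the plasma cell markers to 18120, 27615 and 327 CPM in LN and to 6812, 44541 and 27134 CPM in LF. LN 3 was thus high in fat cell transcripts and low in those of antibody-secreting cells. The smooth muscle markers summed to 1641, 2136 and 14283 CPM in LN and to 2819, 13207 and 63897 CPM in LF, highest in LF 3. In bulk tissue, fewer cells of a type and less RNA per cell cannot be told apart. Results are therefore also given without the libraries they may rest on, and these omissions were chosen after the data were seen where they leave out LN 3 and LF 3 together or the 3 ileum libraries high in FABP6 (LF 1, HN 2 and HF 2).

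**Figure D1:**
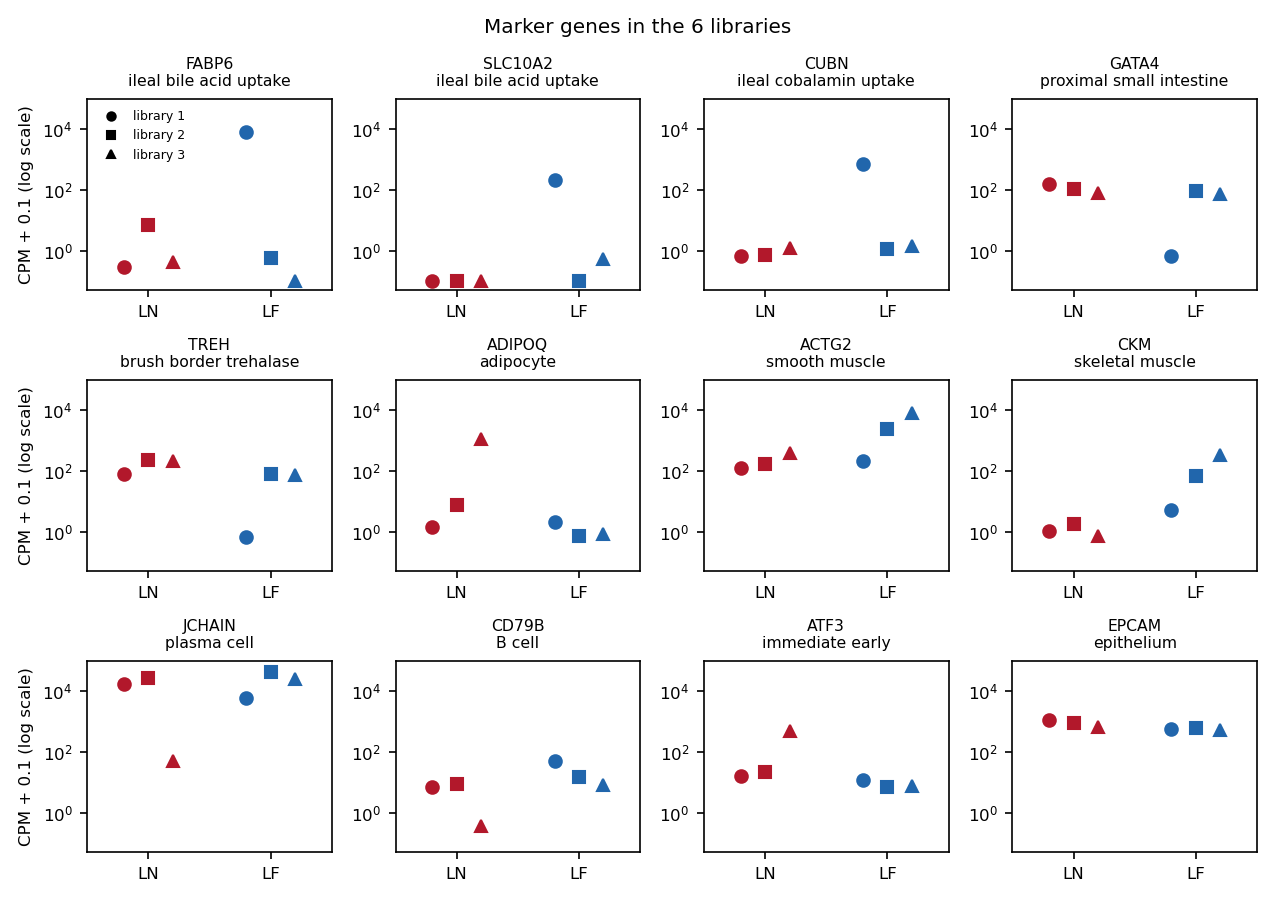
Levels of 12 marker genes in the 6 libraries, as CPM + 0.1 on a log axis, LN left of LF; each point is 1 library, with its number given by the symbol. FABP6, SLC10A2 and CUBN are high in LF 1 only, where GATA4 and TREH are low; ADIPOQ and ATF3 are high in LN 3, where JCHAIN is low, and ACTG2 and CKM are highest in LF 3.

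NCG on the low-fibre diet went with a wide set of genes at higher levels and few at lower levels. Of 15103 genes tested, 640 were higher in LN and 16 were lower (edgeR quasi-likelihood test over the 12 ileum libraries, Benjamini-Hochberg adjusted p below 0.05), so that 4.34% of all tested genes were called, 4.24% as higher and 0.106% as lower. The median log2 change of the 640 higher genes was 1.60, within a range of 0.54 to 9.01, and 584 of them lay above 1. The median of the 16 lower genes was −0.75, and that of all genes tested was −0.05. The 3 LN libraries lay above the 3 LF libraries for 2353 genes, 15.6% of those tested, and below them for 1616, 10.7%. All 640 higher and all 16 lower genes were among these, so the separation of a called gene adds nothing to its call. Without LF 2 the calls numbered 130 higher and 3 lower, and without LF 3 they numbered 279 and 3. Without LN 3 they numbered 393 and 2, and without both LN 3 and LF 3 they numbered 92 and 0. The share of tested genes called higher was thus 0.844%, 1.82%, 2.57% and 0.607%, in that order. It was 2.91% without LF 1. Counts of list members in these omissions are to be read beside these shares. With only the 6 LN and LF libraries in the edgeR fit no gene was called, although 2469 had an unadjusted p under 0.05 and the smallest adjusted p was 0.0536; DESeq2 on the same 6 libraries called 1193 higher and 240 lower, and limma voom none.

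The gene with the smallest p-value was PGAP1, the enzyme that removes a fatty acid from the inositol of newly made GPI anchors in the endoplasmic reticulum (chr15:100733552-100820603, minus strand, Sscrofa11.1). It had 169, 130 and 166 CPM in LN against 25.6, 26.4 and 22.4 CPM in LF. Its 2 groups lay far apart and each was tight. The difference was 6.25-fold, or a log2 change of 2.64 ± 0.22 (SE), with an adjusted p of 0.0022 by edgeR. ETNK1, the ethanolamine kinase that starts phosphatidylethanolamine synthesis, had 309, 295 and 414 CPM in LN against 56.7, 64.5 and 56.5 CPM in LF, a log2 change of 2.52 ± 0.26 (edgeR adjusted p = 0.00344). SLC4A7, a sodium bicarbonate cotransporter that loads cells with base, had 637, 490 and 428 CPM in LN against 85.9, 115 and 88.4 CPM in LF, a log2 change of 2.43 ± 0.39 (edgeR adjusted p = 0.00807). For all 3 genes the lowest LN library stood above the highest LF library, and all 3 stayed called when any 1 of the 12 ileum libraries was left out.

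Quality control of stalled ribosomes was represented by its central pair. LTN1, the ubiquitin ligase that marks nascent chains on stalled large subunits, had 46.1, 38.8 and 60.6 CPM in LN against 11.1, 9.43 and 12.2 CPM in LF, a log2 change of 2.15 ± 0.20 (edgeR adjusted p = 0.0022). NEMF, which recognises the stalled subunit and recruits LTN1, had 25.1, 15.3 and 44.9 CPM in LN against 5.84, 5.64 and 4.09 CPM in LF, a log2 change of 2.45 ± 0.38 (edgeR adjusted p = 0.00776). Both were separated between the diets, as were all 640 higher genes, and both remained called in each single omission. Without both LN 3 and LF 3, LTN1 was still called, while NEMF had an edgeR adjusted p of 0.0542. ASCC3, a helicase that takes collided ribosomes apart, rose by a log2 change of 1.04, and its adjusted p was 0.0524 without LF 2, 0.0559 without LF 3 and 0.0827 with the trend of change with gene length removed. These 3 were the called members among 19 tested genes of ribosome-associated quality control, 15.8% against 4.24% of all tested genes called higher. The median of the 19 was −0.13 against −0.05 for all genes tested.

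PPIP5K2, which makes inositol pyrophosphates, had 37.3, 34.8 and 55.6 CPM in LN against 8.62, 6.03 and 5.04 CPM in LF. It was the 1 member called of 11 inositol phosphate kinases, 9.09% against 4.24% of all tested genes called higher. SKIL, a repressor of SMAD-driven transcription, had 71, 69.9 and 125 CPM in LN against 16.6, 15.1 and 12.9 CPM in LF. JAK2, the tyrosine kinase behind cytokine receptors, had 50.7, 43.9 and 65.5 CPM in LN against 13.7, 12.8 and 10 CPM in LF. None of these 3 overlapped between the diets, and their log2 changes were 2.69 ± 0.26, 2.58 ± 0.27 and 2.13 ± 0.25 with edgeR adjusted p of 0.00276, 0.00344 and 0.00402. ERBIN, a scaffold of the ERBB2 receptor at the basolateral membrane of epithelia, had 242, 201 and 249 CPM in LN against 79.8, 57.7 and 53.6 CPM in LF. The endosomal sorting protein SNX13, the golgin TMF1, the endoplasmic reticulum protein SUCO, the RNA helicase and m6A reader YTHDC2, the phosphatase subunit PPP4R3B, the histone H2A deubiquitinase USP16, ZC3H15 and N4BP2 rose by log2 changes between 1.55 and 2.58, with edgeR adjusted p between 0.00296 and 0.00402. All of these, with PPIP5K2, SKIL, JAK2 and ERBIN, kept their calls in each of the 12 single omissions, as did 127 of the 640 higher genes in all.

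**Figure D2:**
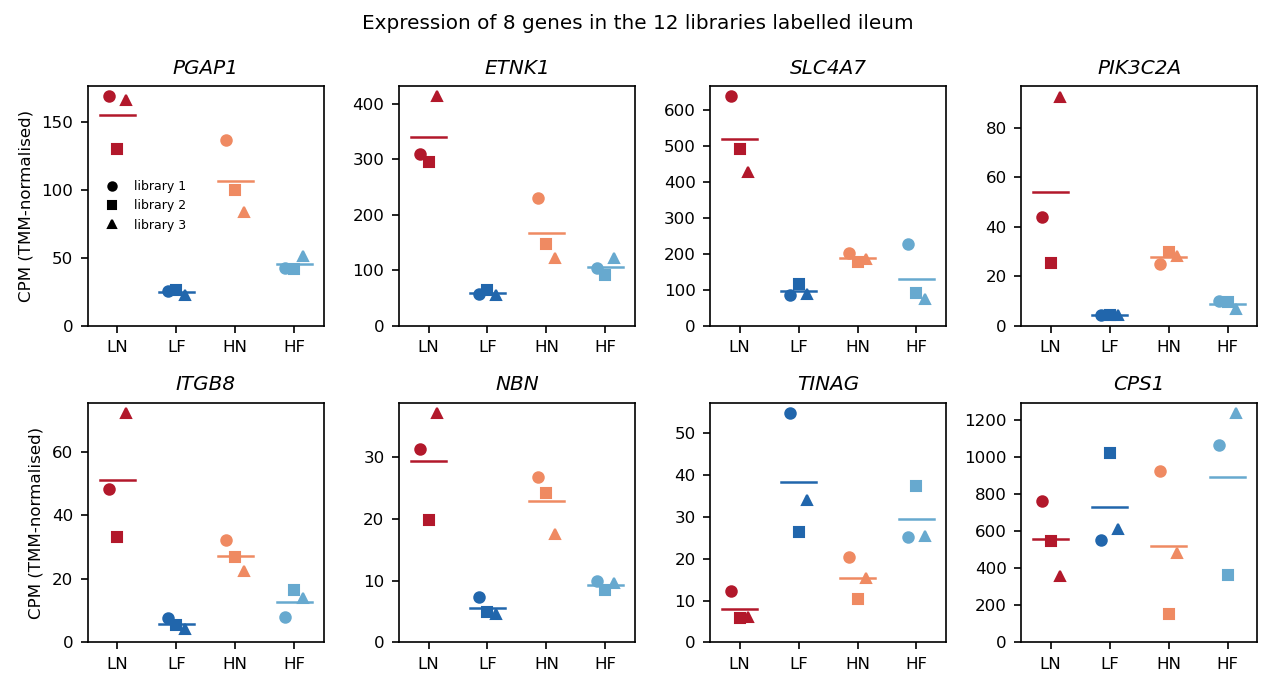
CPM of 8 genes in the 12 ileum libraries, each panel from 0, with LN left of LF and HN left of HF; each point is 1 library and the line is the mean of 3. The 3 LN points lie above the 3 LF points in 6 genes, PGAP1 to NBN, below them for TINAG and among them for CPS1.

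The enzymes next to the target of NCG were not called. CPS1 itself had 766, 550 and 361 CPM in LN against 554, 1026 and 611 CPM in LF, a log2 change of −0.39 ± 0.62 (edgeR adjusted p = 0.748). The libraries of the diets overlapped. OTC, which makes citrulline from carbamoyl phosphate, had 239, 270 and 235 CPM in LN against 143, 230 and 229 CPM in LF, and NAGS, which makes N-acetylglutamate, had 27.6, 33.3 and 28.4 CPM in LN against 19.5, 25 and 18.4 CPM in LF. In both, LN lay above LF by less than the spread allowed to be called, with edgeR adjusted p of 0.839 and 0.618. ASS1, which turns citrulline towards arginine, had 32.7, 25.7 and 15.4 CPM in LN against 288, 7.8 and 14.1 CPM in LF, where LF 1 alone was high, and its log2 change of −2.07 became 1.16 without that library.

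None of 18 tested genes of the urea cycle and citrulline synthesis passed the test, with a median log2 change of 0.13, and none of 25 genes of arginine uptake, nitric oxide and polyamine metabolism did, with a median of −0.05. At an unadjusted p under 0.05, which 19.4% of all tested genes had, 1 of the 18 was higher and none lower, and 2 of the 25 were higher and 1 lower. SLC7A1, the widespread carrier of arginine and lysine, had 28.2, 30.5 and 12.6 CPM in LN against 39.9, 42.6 and 42.5 CPM in LF (edgeR adjusted p = 0.13). SLC7A2, another carrier of arginine, had 10.3, 9.38 and 100 CPM in LN against 5.33, 6.34 and 13 CPM in LF (edgeR adjusted p = 0.173), with LN 3 far above the other libraries. SAT1, which acetylates polyamines for export, had 445, 464 and 520 CPM in LN against 357, 361 and 193 CPM in LF (edgeR adjusted p = 0.21).

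The series title names the PI3K-Akt pathway, so this list may rest on a choice made from the same libraries, and its count is no independent evidence of a direction. Of 39 tested genes of the PI3K, AKT and mTOR core, 6 rose (15.4%, against 4.24% of all tested genes) and none fell. The median log2 change of the 39 was −0.08. PIK3C2A, a class II PI3-kinase that makes phosphoinositides on endosomes and at clathrin-coated pits, had 43.8, 25.5 and 92.5 CPM in LN against 4.45, 4.56 and 4.31 CPM in LF, a log2 change of 3.60 ± 0.42 (edgeR adjusted p = 0.00403). Its LF libraries were almost equal, and the lowest LN library was far above them. RICTOR, the defining subunit of mTOR complex 2, which phosphorylates AKT, had 42.4, 36.6 and 75 CPM in LN against 12, 7.96 and 7.45 CPM in LF, a log2 change of 2.49 ± 0.35 (edgeR adjusted p = 0.0066). RPS6KB1, the S6 kinase below mTOR complex 1, had 76.7, 70.5 and 77.5 CPM in LN against 34.1, 35.5 and 35.6 CPM in LF, a log2 change of 1.10 ± 0.18 (edgeR adjusted p = 0.00914).

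The genes that rose in this list work in opposite directions on the pathway. INPP4B, a lipid phosphatase that removes a PI3-kinase product, had 41.2, 39.8 and 65.2 CPM in LN against 16.4, 15.1 and 13.3 CPM in LF, a log2 change of 1.71 ± 0.29 (edgeR adjusted p = 0.00942). PIK3CA, the catalytic subunit of the main class I PI3-kinase, had 32.4, 25.2 and 61.9 CPM in LN against 11.2, 8.42 and 12.1 CPM in LF, a log2 change of 1.91 ± 0.41 (edgeR adjusted p = 0.0255). AKT1 had 120, 107 and 94.8 CPM in LN against 137, 140 and 160 CPM in LF, with LN below LF in all libraries, a log2 change of −0.44 ± 0.18 (edgeR adjusted p = 0.212). Without LF 2 the adjusted p of RPS6KB1 was 0.056 and that of INPP4B 0.0574, and PIK3CA was above the threshold without LF 1 (0.0699), LF 2 (0.125), LF 3 (0.0792) or LN 3 (0.0896). Without LF 2, 2 of the 39 genes were called, and without both LN 3 and LF 3 it was 1. Of all tested genes 0.844% and 0.607% were called higher in these settings.

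Receptor tyrosine kinases and their ligands had 4 members higher among 42 tested (9.52%, against 4.24% of all tested genes) and none lower. The median log2 change of the 42 was 0.35, and all 4 higher genes were ligands made largely outside the epithelium. IGF1, the insulin-like growth factor, had 19.9, 17.9 and 58.4 CPM in LN against 5.65, 7.73 and 8.11 CPM in LF, a log2 change of 2.16 ± 0.46 (edgeR adjusted p = 0.0244). HGF, the ligand of the MET receptor, had 4.53, 5.33 and 38.4 CPM in LN against 1.53, 1.39 and 0.658 CPM in LF, and ANGPT1, the ligand of the endothelial receptor TEK, had 3.8, 2.77 and 18.5 CPM in LN against 0.51, 0.927 and 1.02 CPM in LF. KITLG, the ligand of KIT, had 73.6, 72.5 and 119 CPM in LN against 29.9, 34.5 and 54.3 CPM in LF (edgeR adjusted p = 0.0489). KITLG lost its call in 11 of the 12 single omissions, all but that of LF 3 (0.0564 to 0.179), with the length trend removed (0.081) and with all 24 libraries fitted together (0.314). In all 4 ligands LN 3, the library with 6819 CPM of adipocyte markers, was the highest, although LN 1 and LN 2 also lay above every LF library. The part of those cells in the result was not tested. No member was called without LF 1 or without LF 2, and 1 was called without LF 3 and 3 without LN 3.

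The lists with the highest shares of higher genes concerned the upkeep of chromosomes and of the centrosome. These lists, like the others given here, were chosen with earlier results of these data known. Their shares beside all tested genes are therefore no independent evidence about a pathway. Of 25 tested DNA damage kinases and chromosome maintenance genes, 10 rose and none fell, against 4.24% of all tested genes called higher, and 19 lay above LF in every LN library, against 15.6% of all tested genes; the median log2 change was 1.18. Called members numbered 1 without LF 2, 6 without LF 3, 8 without LF 1 or LN 3, and 1 without both LN 3 and LF 3. Of all tested genes 0.844%, 1.82%, 2.91%, 2.57% and 0.607% were called higher in these settings, in the same order. NBN and RAD50 are partners in the complex that detects broken DNA ends. NBN had 31.3, 19.8 and 37.2 CPM in LN against 7.27, 4.87 and 4.6 CPM in LF, a log2 change of 2.39 ± 0.30 (edgeR adjusted p = 0.00438). RAD50 had 42.9, 16.7 and 55 CPM in LN against 9.27, 8.19 and 7.16 CPM in LF, a log2 change of 2.22 ± 0.37 (edgeR adjusted p = 0.00914, and 0.0574 without LF 2). In both genes LN 2 was the lowest of the LN libraries and still above all of LF. The cohesin subunit STAG2 had 92.2, 78.2 and 148 CPM in LN against 33.4, 22.6 and 24.8 CPM in LF, and POLK, a DNA polymerase that copies past damaged bases, had 35.4, 27.1 and 44.6 CPM in LN against 14.5, 10.4 and 10 CPM in LF. Both were called by edgeR with adjusted p of 0.00805 and 0.00804, and with 0.0528 each without LF 2.

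Of 33 centrosome and cilium genes, 12 rose (36.4%, against 4.24% of all tested genes) and none fell, with a median log2 change of 1.14. AKAP9, which anchors kinases and microtubule nucleation at the centrosome and Golgi, had 79.2, 45.6 and 132 CPM in LN against 24.5, 17.8 and 14.3 CPM in LF, a log2 change of 2.18 ± 0.35 (edgeR adjusted p = 0.00807). PCM1, the scaffold of centriolar satellites, had 56.7, 28.4 and 100 CPM in LN against 13.9, 11.7 and 13.3 CPM in LF, a log2 change of 2.25 ± 0.38 (edgeR adjusted p = 0.00938). CEP290, a gatekeeper of the cilium, had 7.13, 2.84 and 12.8 CPM in LN against 1.07, 0.85 and 0.438 CPM in LF. These genes shared an order within LN, with LN 3 highest and LN 2 lowest, while LF was low throughout. Without LF 2 none of the 12 calls of this list was left, with adjusted p of 0.0528 for AKAP9 and for CEP350 and 0.0607 for PCM1 and CEP290. Without LF 1, LF 3 or LN 3, 7, 4 and 6 of the 33 were called, and without both LN 3 and LF 3 none. Of all tested genes 2.91%, 1.82%, 2.57% and 0.607% were called higher in these settings, in the same order, and 0.844% without LF 2.

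Chromatin remodellers and methyltransferases had 10 of 36 members higher (27.8%) and none lower, and golgins and Golgi tethers 9 of 26 (34.6%) and none. Of all tested genes 4.24% were called higher. The medians of the 2 lists were 0.17 and 0.30. With the trend of change with gene length removed, the medians were −0.14 and 0.10, so that the direction of the chromatin list turned. CHD9, a chromatin remodeller, had 65.8, 40.6 and 93.2 CPM in LN against 13.8, 15.9 and 11.9 CPM in LF, a log2 change of 2.26 ± 0.27 (edgeR adjusted p = 0.00403). SMARCA5, the motor of the ISWI remodelling complexes, rose by a log2 change of 1.44 and CHD1, which spaces nucleosomes in transcribed genes, by 1.83, and both were above the threshold without LF 2 (0.069 and 0.0706) or LF 3 (0.0604 and 0.0627). USO1, which tethers vesicles arriving at the Golgi, had 139, 89.3 and 125 CPM in LN against 24.8, 35.8 and 35.7 CPM in LF, a log2 change of 1.87 ± 0.26 (edgeR adjusted p = 0.00623). GOLGA4, a golgin of the trans side, had 93.6, 38.1 and 99.9 CPM in LN against 17.3, 18.9 and 13.1 CPM in LF, and its adjusted p was 0.0542 without LF 2 and 0.0552 without LF 3. Called members numbered 5 in the chromatin list and 6 in the golgin list without LF 1, and 1 and 2 without LF 2. They numbered 1 and 2 without LF 3, and 4 and 5 without LN 3. Of all tested genes 2.91%, 0.844%, 1.82% and 2.57% were called higher in these settings, in the same order.

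The USP deubiquitinases, which remove ubiquitin from proteins, had 12 of 45 members higher (26.7%) and none lower. The ZNF-named zinc finger genes, most of which bind DNA, had 38 of 245 higher (15.5%) and none lower. Of all tested genes 4.24% were called higher. The median log2 changes of the 2 lists were 0.26 and 0.09. USP8, which acts on receptors at endosomes, had 50.7, 34.3 and 76.6 CPM in LN against 17.1, 17.5 and 16.3 CPM in LF, and USP53, a protein of epithelial tight junctions, had 17.9, 16.1 and 36.8 CPM in LN against 3.1, 4.25 and 3.43 CPM in LF. Their log2 changes were 1.66 ± 0.26 and 2.71 ± 0.40, with edgeR adjusted p of 0.00804 and 0.0068. ZNF711 had 15.9, 8.51 and 25 CPM in LN against 2.04, 2.32 and 1.53 CPM in LF, and ZNF24 had 106, 93.1 and 133 CPM in LN against 40.7, 40.3 and 46.5 CPM in LF. These 4 genes, with ZNF146 and ZNF644, kept their calls in every single omission. Without both LN 3 and LF 3, USP8, USP53, ZNF711 and ZNF644 lost their calls. With all 24 libraries fitted together, ZNF24 and ZNF644 lost theirs. Without LF 2 the lists had 3 and 5 members called, without LF 3 they had 6 and 14, and without LN 3 they had 7 and 23. Without both LN 3 and LF 3 they had 2 and 3. Of all tested genes 0.844%, 1.82%, 2.57% and 0.607% were called higher in these settings, in the same order. Many zinc finger genes lie in clusters of close relatives, and how reads shared between relatives were counted was not tested.

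**Figure D3:**
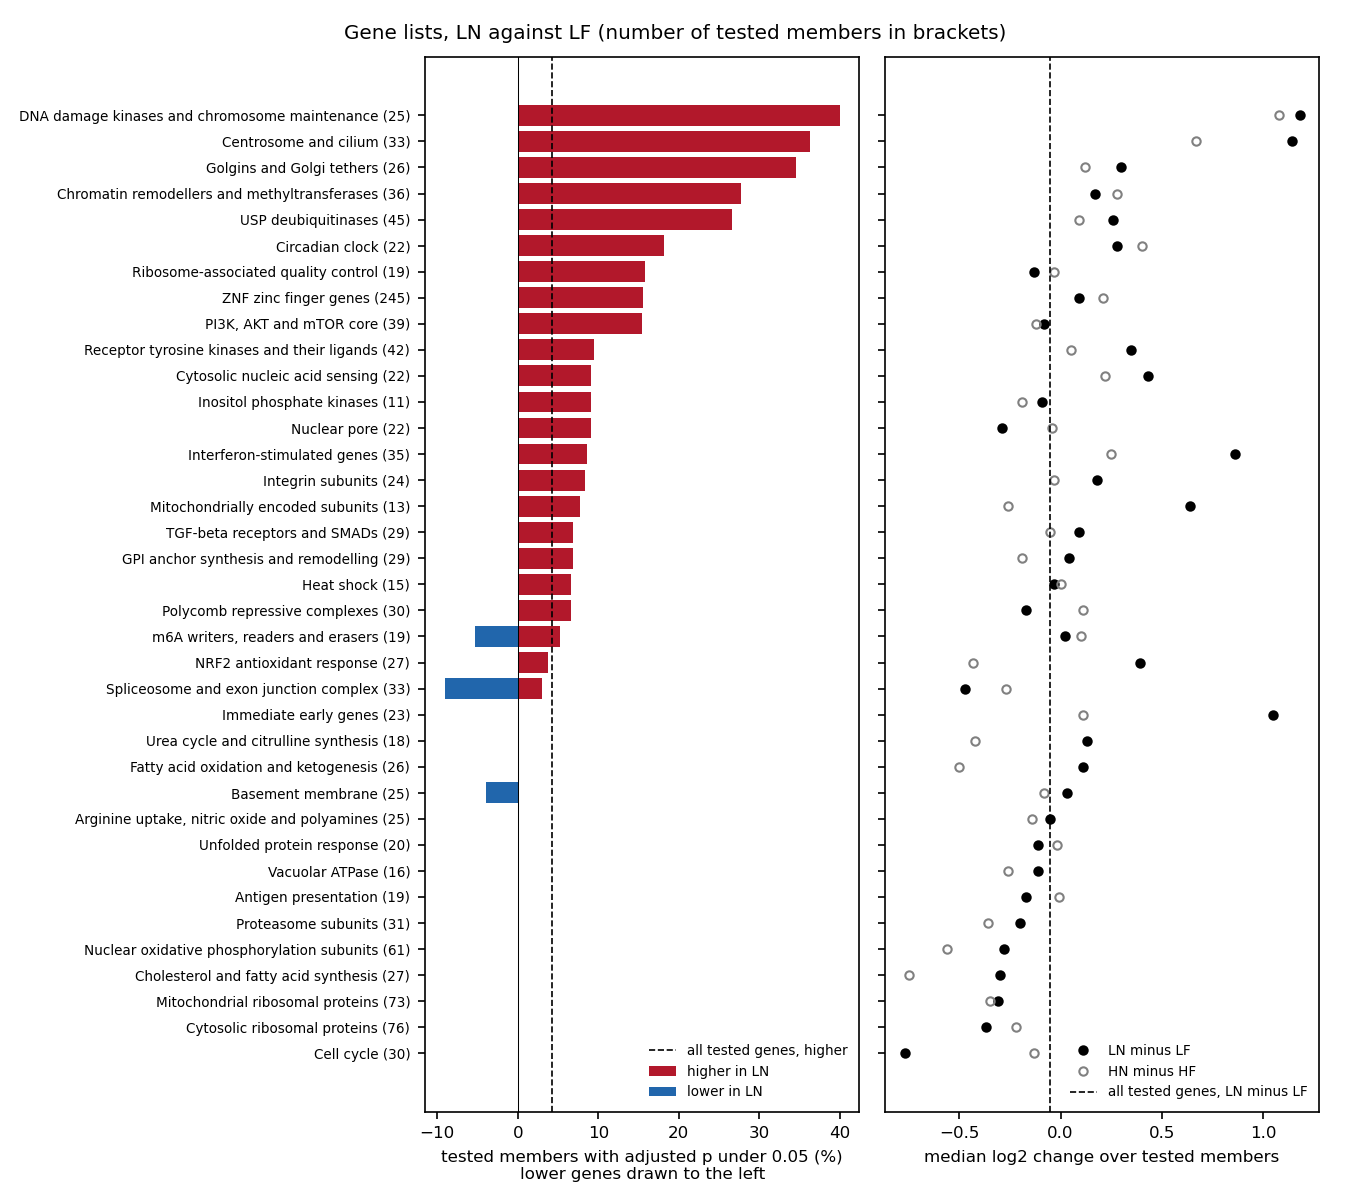
For each gene list, with its number of tested members in brackets, the left panel gives the percent of members called higher (red) or lower (blue, to the left) in LN, beside 4.24% of all genes called higher (dashed); the right panel gives the median log2 change of LN over LF (filled) and HN over HF (open), beside −0.05 for all genes (dashed). The DNA maintenance and centrosome lists have the highest shares called, with medians of 1.18 and 1.14. The spliceosome list has the highest share called lower, with a median of −0.47. The lists were chosen with earlier results of these data known.

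Adhesion and its growth factor were represented by a receptor pair. ITGB8 and ITGAV form the integrin that releases TGF-beta from its latent complex. ITGB8 had 48.5, 33.2 and 72.2 CPM in LN against 7.69, 5.41 and 4.09 CPM in LF, a log2 change of 3.16 ± 0.39 (edgeR adjusted p = 0.00403). ITGAV had 164, 142 and 146 CPM in LN against 43.8, 58.6 and 64.5 CPM in LF, a log2 change of 1.44 ± 0.22 (edgeR adjusted p = 0.00776). The pair were the called genes among 24 integrin subunits, 8.33% against 4.24% of all tested genes called higher. Each was separated between the diets and called in every single omission. The call of ITGAV was lost with all 24 libraries fitted together (0.149) and without both LN 3 and LF 3 (0.053). Among 29 TGF-beta receptors and SMADs, SKIL and SMAD5 rose, a share near the 4.24% of all tested genes called higher, and the list's median was 0.09, or −0.11 with the length trend removed. SMAD5, which carries the BMP signal, had 61.7, 52.9 and 88.2 CPM in LN against 21.8, 27.5 and 30.2 CPM in LF.

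The circadian clock had 4 of 22 members higher (18.2%, against 4.24% of all tested genes) and none lower, with a median log2 change of 0.28. RORA and NR1D2 are nuclear receptors that act on the same DNA elements, the first as an activator and the second as a repressor. RORA had 36.3, 36.6 and 55 CPM in LN against 13.6, 9.35 and 10.5 CPM in LF, a log2 change of 1.93 ± 0.29 (edgeR adjusted p = 0.0068). NR1D2 had 140, 189 and 207 CPM in LN against 76.7, 42.7 and 60.1 CPM in LF, a log2 change of 1.58 ± 0.28 (edgeR adjusted p = 0.0105, with 0.0607 without LF 2 and 0.0517 without LF 3). DBP, an output factor of the clock, had 30.7, 43.1 and 45 CPM in LN against 12.4, 9.35 and 13.5 CPM in LF, and PER3 had 54.8, 63.8 and 86.6 CPM in LN against 40.3, 34.8 and 31.1 CPM in LF. Both were called with edgeR adjusted p of 0.0444 and 0.0273, and both were above the threshold without LF 2, LF 3, LN 2 or LN 3 (0.0583 to 0.168), DBP also without LF 1 (0.0984) or LN 1 (0.052). Over the 12 single omissions DBP lost its call in 8 and PER3 in 6. With the length trend removed, PER3 had a log2 change of 0.54 and was not called (0.177). With all 24 libraries fitted together all 4 calls of the list were lost, as they were without both LN 3 and LF 3. Without LF 2 or without LF 3, 1 of the 22 was called, beside 0.844% and 1.82% of all tested genes called higher. The labels give no hour of sampling, and its part was not tested.

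A sensor of foreign RNA and a kinase below it were higher in LN. IFIH1, the cytosolic sensor of long double-stranded RNA, had 42.1, 27.1 and 58.3 CPM in LN against 8.71, 4.79 and 3.43 CPM in LF, a log2 change of 2.90 ± 0.46 (edgeR adjusted p = 0.00804, and 0.0528 without LF 2). TBK1, the kinase that carries its signal to interferon factors, had 52.8, 45.5 and 51.6 CPM in LN against 18.4, 16.8 and 13.7 CPM in LF, a log2 change of 1.62 ± 0.19 (edgeR adjusted p = 0.00403). They were the called pair among 22 genes of cytosolic nucleic acid sensing, 9.09% against 4.24% of all tested genes called higher. Of the 22, 13 had positive log2 changes, and TBK1 was the 1 called without LF 2. Of 35 interferon-stimulated genes 3 rose (8.57%, beside the same 4.24%) and none fell, with a median of 0.86 and 28 above zero. The 3 were DTX3L, PARP9 and PARP14. DTX3L and PARP9 act together as a ubiquitin ligase and ADP-ribosyltransferase; DTX3L had 79.4, 73.1 and 111 CPM in LN against 33.2, 19.9 and 19.9 CPM in LF. None of the 3 was called without LF 2, without LF 3 or without LN 3, and the list's median was 0.58 without LF 3, 0.55 without LN 3, 1.33 without LF 1 and 0.22 without both LN 3 and LF 3.

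Single members rose in other lists. GCLM, the regulatory subunit of the enzyme that starts glutathione synthesis, had 150, 83.6 and 128 CPM in LN against 24.5, 24 and 21 CPM in LF, a log2 change of 2.38 ± 0.42 (edgeR adjusted p = 0.011, with 0.0646 without LF 2 and 0.0593 without LF 3). It was the 1 gene called among 27 of the NRF2 antioxidant response, a share below the 4.24% of all tested genes called higher; the list's median log2 change was 0.39. PCGF5 and PHC3, subunits of polycomb repressive complexes, were the called pair among 30, a share of 6.67% beside the 4.24%. PCGF5 had 89.2, 77.2 and 148 CPM in LN against 20.5, 26.3 and 26.6 CPM in LF. The polycomb list's median was −0.17, and 17 of the 30 had negative log2 changes. In 10 of them every LN library lay below LF and in 7 above, against 10.7% and 15.6% of all tested genes. At an unadjusted p under 0.05, 6 were higher and 6 lower. AHCTF1, which seeds nuclear pores on chromatin, and TPR, the pore's basket protein, were the called pair among 22 nuclear pore genes (9.09%). Of the 22, 19 had negative log2 changes. AHCTF1 had an edgeR adjusted p of 0.00804, and of 0.0528 without LF 2; TPR had 0.0348, and lost its call in 9 of the 12 single omissions, among them LF 1, LF 2, LF 3, LN 1 and LN 3, with values up to 0.144, and with the length trend removed (0.0872). In the GPI anchor list PIGA, which acts in the first step of the anchor's synthesis, had 24.9, 23.9 and 37.5 CPM in LN against 13.2, 11.9 and 18 CPM in LF, with an edgeR adjusted p of 0.037. PIGA lost its call in 8 of the 12 single omissions (0.0532 to 0.155), LF 1, LF 2 and LN 3 among them, and with the length trend removed (0.0594). It and PGAP1 were the called pair of 29, 6.9% beside the 4.24% of all tested genes, and the list's median was 0.04.

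The 16 lower genes changed by less. TINAG, a basement membrane protein of tubular and gut epithelium (chr7:26448612-26522993), had 12.2, 5.81 and 6.05 CPM in LN against 54.8, 26.4 and 33.9 CPM in LF, 4.79-fold higher in LF. Its log2 change was −2.26 ± 0.40 (edgeR adjusted p = 0.0108), and the groups did not overlap. It was the 1 lower gene called in each of the 12 single omissions, and its adjusted p was 0.0994 without both LN 3 and LF 3 and 0.158 when all 24 libraries were fitted together. CD300A, an inhibitory receptor of myeloid cells, had 4.8, 7.7 and 3.81 CPM in LN against 31.3, 20.7 and 11.9 CPM in LF, a log2 change of −1.97 ± 0.42 (edgeR adjusted p = 0.0244). It was above the threshold without LF 1 (0.0741), LF 2 (0.0819), LN 1 (0.0703) or LN 3 (0.103). CD300A is 1 of 12 tested macrophage and dendritic cell markers, all with negative log2 changes and a median of −0.64, which was −0.35 without LF 1 or without LN 3; the list summed to 648, 1073 and 383 CPM in LN against 1202, 1228 and 594 CPM in LF. The part of those cells in the result was not tested. MTHFD2, the mitochondrial folate enzyme of proliferating cells, had 10.2, 11.6 and 7.36 CPM in LN against 21.4, 19.2 and 34.5 CPM in LF, and TIFA, an adaptor of the sensor of bacterial sugars ALPK1, had 18.1, 24.2 and 14.3 CPM in LN against 40.2, 35.5 and 39.5 CPM in LF. Both were called by edgeR with adjusted p of 0.0333 and 0.0336, and neither was called without LF 1, LF 2, LF 3, LN 1 or LN 3 (0.0536 to 0.13).

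Small proteins of RNA processing made up a part of the lower genes. Of 33 genes of the spliceosome and exon junction complex, 3 fell and 1 rose, against 0.106% and 4.24% of all tested genes. Of the 33, 31 had negative log2 changes, with a median of −0.47. In 22, every LN library lay below LF, against 10.7% of all tested genes. SNRPF and SNRPE, core proteins of the spliceosomal small ribonucleoproteins, fell by 1.16 and 0.74 on the log2 scale, and RBM8A, which marks spliced exon junctions, fell by 0.64. SNRPF had 10.8, 6.82 and 5.19 CPM in LN against 17.6, 17.6 and 15.9 CPM in LF (edgeR adjusted p = 0.0317). SF3B1, a large protein that recognises the branch site, ran the other way, with 518, 540 and 944 CPM in LN against 359, 274 and 261 CPM in LF, a log2 change of 1.16 ± 0.28 (edgeR adjusted p = 0.0458). None of the 3 falls was called when LF 1, LF 2, LF 3 or LN 3 was left out. SF3B1 was above the threshold in the same omissions (0.065 to 0.172). Over the 12 single omissions SNRPF lost its call in 8, RBM8A in 10, SNRPE in 11 and SF3B1 in 10. With the length trend removed, RBM8A, SNRPE and SF3B1 were not called. RBM15B, of the m6A writer complex, and PCIF1, which methylates adenosine next to the cap, fell by 0.65 and 0.55 on the log2 scale (edgeR adjusted p = 0.0321 and 0.0451). RBM15B lost its call in 9 and PCIF1 in 11 of the 12 single omissions, with adjusted p up to 0.162, and neither was called without any 1 of the 6 LN and LF libraries. The DNA repair nuclease subunit ERCC1, ADPRH, SMU1, MBOAT1, BLOC1S6 and CBFA2T2 fell by 0.68 to 0.77 on the log2 scale, with edgeR adjusted p of 0.0294 to 0.0468. ADPRH kept its call in 6 of the 12 single omissions, BLOC1S6 and CBFA2T2 in 3, MBOAT1 in 2, and ERCC1 and SMU1 in 1; without LF 1, LF 3, LN 1 or LN 3 none of the 6 was called.

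Several families had no call in either direction. Of 76 cytosolic ribosomal proteins, 72 had negative log2 changes and 41 lay below LF in every LN library, against 10.7% of all tested genes, with a median of −0.37 and 16 at an unadjusted p under 0.05, a share near the 19.4% of all tested genes. RPL37 had 503, 571 and 477 CPM in LN against 845, 862 and 726 CPM in LF, a log2 change of −0.65 ± 0.20 (edgeR adjusted p = 0.0999). Of 61 nuclear genes of oxidative phosphorylation, 57 were negative with a median of −0.28, and of 73 mitochondrial ribosomal proteins 62 were negative with a median of −0.31. These 3 families are of short genes, with median lengths of 777, 850 and 1370 bases, and with the length trend removed their medians were −0.23, −0.13 and −0.20. For oxidative phosphorylation the median was −0.15 without LN 3 and −0.10 without both LN 3 and LF 3, and for mitochondrial ribosomal proteins it was −0.16 without both. The 30 cell cycle genes had a median of −0.77, with 26 negative and 2 at an unadjusted p under 0.05, against 19.4% of all genes; their summed level was 1465, 677 and 230 CPM in LN against 1309, 1379 and 1269 CPM in LF, and their median was −0.25 without LN 3, the lowest of the libraries. Among the 13 subunits encoded by the mitochondrial genome 1 rose (7.69%, against 4.24% of all tested genes) and none fell, with a median of 0.64. That gene, ND2 of complex I, had 2552, 1090 and 3039 CPM in LN against 644, 604 and 667 CPM in LF, a log2 change of 1.80 ± 0.36 (edgeR adjusted p = 0.0181), and was above the threshold without LF 1, LF 2, LF 3 or LN 3 (0.0625 to 0.0976).

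The highest fold differences belonged to genes that were near the detection floor in LF. PON3, a lactonase of liver, had 4.93, 1.49 and 70.5 CPM in LN against 0.0463, 0 and 0.0731 CPM in LF, from 1169 counts in LN, 1073 of them in LN 3, and 2 in LF. The ratio of the counts, scaled by library size, was 626 with an exact 95% interval of 173 to 5174, which covers counting error only. ABCB11, the bile salt export pump, had 3.2, 2.84 and 3.42 CPM in LN, from 142 counts, and 2 counts in LF, a ratio of 76 with an interval of 20.7 to 634. LECT2, a secreted hepatokine, had 40.1, 56.3 and 47 CPM in LN against 0.0463, 1 and 1.1 CPM in LF, and SLC38A3, a transporter of glutamine, had 23.7, 12.7 and 9.8 CPM in LN against 0.232, 0.695 and 0.365 CPM in LF. In LECT2 and SLC38A3 the 3 LN libraries were all high. SLC38A3 was called in every single omission, whereas LECT2 was near the threshold by edgeR (adjusted p = 0.0496) and above it without any 1 of the 6 LN and LF libraries, with values of 0.0698 to 0.155. PON3 was above it in 7 of the 12 single omissions, among them LF 1, LF 2, LF 3 and LN 3 (0.093 to 0.142 in these 4), and by limma voom (0.261), and its log2 change was 9.01, or 6.02 without LN 3. ABCB11 was above it without LF 2 (0.0523). UCP3, a mitochondrial carrier best known from muscle, had 23.9, 11.1 and 46.7 CPM in LN against 0.649, 2.4 and 0.438 CPM in LF, with adjusted p of 0.0135, and of 0.0545 and 0.0635 without LF 1 and LF 3. RBM46, LRRC2 and DEFB115 lay between 1.31 and 5.6 CPM in LN and between 0 and 0.438 CPM in LF. Their log2 changes were 4.79, 4.78 and 4.39, with edgeR adjusted p of 0.0457, 0.0458 and 0.0483, and they lost their calls in 9, 9 and 11 of the 12 single omissions. Among the called genes chosen for a high CPM, B4GALT5, which adds galactose in glycolipid synthesis, the nuclear matrix protein MATR3, ZC3H11A and the kinase RIOK3 had log2 changes of 0.94 to 1.32; their calls were lost without LF 2 in all 4 (0.0649 to 0.162), and without LF 1 and LF 3 in all but MATR3.

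Markers of absorptive enterocytes mostly had positive changes, but none was called. Of 25 tested, 20 had positive log2 changes and 12 lay above LF in every LN library, against 15.6% of all tested genes, with a median of 1.11, and 3 had an unadjusted p under 0.05, a smaller share than the 19.4% of all tested genes. Their summed level was 21703, 26188 and 32141 CPM in LN against 15897, 7300 and 11707 CPM in LF. APOB, the scaffold of chylomicrons, had 2297, 2544 and 4792 CPM in LN against 333, 256 and 469 CPM in LF, a log2 change of 3.19 ± 1.0 (edgeR adjusted p = 0.113). SLC2A2, the basolateral glucose transporter, had 62, 63.7 and 103 CPM in LN against 28.8, 11.6 and 16.7 CPM in LF (edgeR adjusted p = 0.121). Both were separated between the LN and LF libraries, and DESeq2 called both. Without LF 1, the library with the distal ileal genes, 24 of the 25 were positive and the median was 1.39.

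Lists of cells outside the epithelium changed with the libraries left out. The 17 smooth muscle markers had a median log2 change of −2.11 and none called, and the median was −0.38 without LF 3 and −3.94 without LN 3. Without both LN 3 and LF 3 it was −2.02, and none of the 17 had a positive change. ACTG2, the visceral smooth muscle actin, had 131, 165 and 395 CPM in LN against 214, 2468 and 8282 CPM in LF (edgeR adjusted p = 0.0891). The 14 B cell markers had a median of −2.02 and none called, and 0.11 without LF 1. The 11 adipocyte markers had a median of 2.98, and −0.02 without LN 3. The 1 called was PPARG, the master factor of fat cells, which gut epithelium also makes (9.09%, against 4.24% of all tested genes called higher). PPARG had 42.2, 25.7 and 94.1 CPM in LN against 6.21, 12.4 and 4.9 CPM in LF (edgeR adjusted p = 0.0305). Its adjusted p was 0.113 without LN 3 and 0.0646 to 0.131 without LF 1, LF 2 or LF 3. The 23 immediate early genes, which respond to stress and handling within minutes to hours, had a median of 1.05, and 0.10 without LN 3, where ATF3 stood at 501 CPM.

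Genes higher in LN were long. The median annotated length was 6593 bases for the 640 higher genes, 2769 bases for the 16 lower genes and 3721 bases for all genes tested. When the tested genes were put in 10 equal bins by length, the median log2 change went up with length, with −0.24 in the shortest bin (204 to 1336 bases) and 0.23 in the longest (9205 to 104486 bases). The share called higher was 0.662% in the shortest bin and 10.6% in the longest. Across genes, which are not independent replicates, Spearman's rho between length and change was 0.19. With the length trend taken out, 512 genes were higher and 49 lower, and 504 of the 640 were among the 512. The lists described above then held 10 called members for DNA maintenance, 12 for centrosome and cilium, 6 for chromatin, 6 for golgins and 8 for the USP family, and the spliceosome list held 1 lower.

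**Figure D4:**
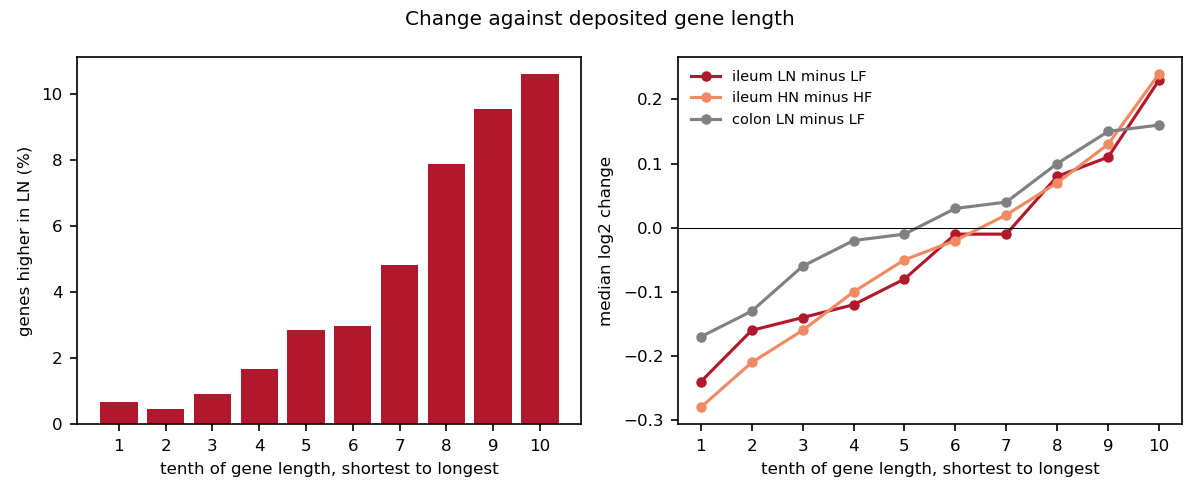
Genes in 10 equal bins by length, shortest to longest along both horizontal axes: the left panel gives the percent of genes called higher in LN, and the right panel the median log2 change of LN over LF in ileum, HN over HF in ileum and LN over LF in colon. The share called higher is 0.662% in the shortest and 10.6% in the longest bin, and the 3 lines run upward, between −0.24 and 0.23 for LN over LF, −0.28 and 0.24 for HN over HF, and −0.17 and 0.16 in colon.

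The same 640 genes were then read in 2 comparisons that share no library with LN against LF. The labels do not tie libraries to sows, so the colon libraries may come from the same sows as the ileum libraries. In ileum on the high-fibre diet, 626 of them (97.8%) were positive for HN over HF, against 46% of all genes tested, with a median log2 change of 0.84, and 475 (74.2%) were higher at an unadjusted p under 0.05, against 5.42% of all genes; 2 were lower, against 2.65%. None passed the adjusted threshold there by edgeR, where 1219 genes in all had an unadjusted p under 0.05 and DESeq2 called 218. PGAP1 had 137, 100 and 83.5 CPM in HN against 42.9, 41.6 and 51.5 CPM in HF, a log2 change of 1.24 ± 0.21. In colon, 577 of the 631 genes tested there (91.4%) were positive for LN over LF, against 50.1% of all genes, and 154 (24.4%) were higher at an unadjusted p under 0.05 and 1 lower, against 7.07% and 6.26% of all genes tested in colon. Of the 16 lower genes, 1 was positive in HN over HF and 5 in colon.

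The HN and HF libraries are separate from LN and LF but enter the shared estimate of spread. Genes that vary little within HN and HF were thus more readily called in LN against LF. The same spread entered the p-values of HN against HF, which favoured small p there for genes called in LN against LF. The 5.42% of all genes is therefore no even background for the 74.2% of the 640. On the scale of the 640 genes' median deviation from their mean over the libraries of that tissue, LN stood at 0.63, 0.37 and 1.15, LF at −0.67, −0.82 and −0.81, HN at 0.49, 0.57 and 0.20, and HF at −0.41, −0.30 and −0.38. In ileum every NCG library was thus above every library without NCG for these genes. In colon the order was less clear, with 0.48, 0.30 and 0.34 in LN, −0.60, 0.65 and −0.84 in LF, 0.96, 0.44 and −0.19 in HN, and −0.60, −0.27 and −0.57 in HF, where LF 2 stood above the LN libraries.

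**Figure D5:**
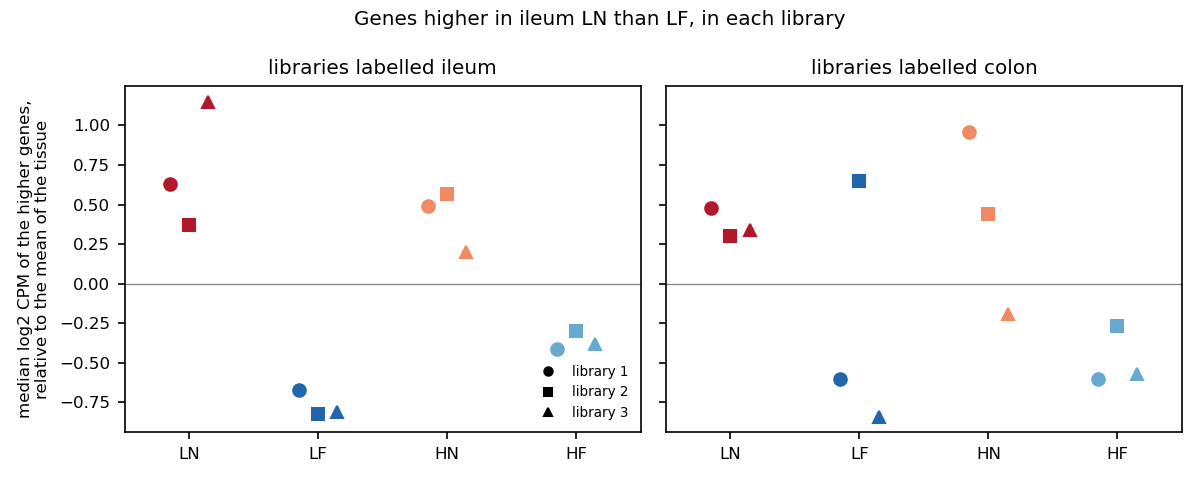
Median over the 640 higher genes of each library's log2 CPM relative to the gene's mean in its tissue, 1 point per library, for ileum and colon, each diet with NCG left of the same diet without it. The 3 LN ileum libraries lie at 0.37 to 1.15 and the 3 LF ileum libraries at −0.82 to −0.67. The genes were chosen for their difference between these 6 libraries. The spread in that fit also drew on the HN and HF ileum libraries.

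Whether the response to NCG differed by fibre or by tissue was tested directly. For the difference between LN over LF and HN over HF in ileum, no gene was called by edgeR, 672 had an unadjusted p under 0.05 and DESeq2 called 26. The smallest adjusted p was 0.0917, at a gene known only by a locus number. Of the 5 genes with symbols and the smallest p, UCP3 differed by 7.82 and ABCB11 by 9.64 on the log2 scale, with edgeR adjusted p of 0.453 and 0.872, and in both the high-fibre change was negative, at −3.26 for UCP3 and −3.65 for ABCB11. PGAP1 and ETNK1 were positive on both diets, with differences of 1.41 and 1.87 that did not pass the test (edgeR adjusted p = 0.872 each). For the difference between ileum and colon in LN over LF, again no gene was called by edgeR, 1254 had an unadjusted p under 0.05 and DESeq2 called 32. The smallest adjusted p of that comparison was 0.467, at LPGAT1, CDO1 and PC. That test treated ileum and colon libraries as separate, because the labels do not tie them to sows. These results do not show that the responses were alike.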

How the data were processed

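The deposited table held whole-number read counts and FPKM values per gene and library, with a length for each gene; per the submitters' processing notes fastp 0.22.0, HISAT2 2.1.0, HTSeq 0.9.1 and the genome build Sscrofa11.1 were used, with settings not given in the sources used here. The deposited FPKM values equalled counts per kilobase and per total of the library to a relative difference of 2.1e-07 at most; no result rests on them. Per the labels' protocols, poly(A) RNA was primed at random and read in pairs; strand is not stated, so overlapping and antisense genes cannot be told apart.

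All tests started from the deposited counts. Genes passing filterByExpr (15103 in ileum) were scaled by TMM and tested with edgeR 4.0.16 (quasi-likelihood, 12 ileum libraries, 4 diet means, R 4.3.3), with Benjamini-Hochberg adjustment over all genes at 0.05; the ileum and colon difference used all 24 libraries. CPM are TMM-normalised, and 3 counts, the floor used, were 0.151 to 0.224 CPM in LN and LF before that scaling. DESeq2 1.42.0, limma 3.58.1, other normalization, filters, covariates, a length trend (lowess span 0.3) and omitted libraries were alternatives. Genes were named from 15 higher and 16 lower ones ranked by p, the 8 with the largest fold and the 8 with the highest CPM each way, up to 4 members per gene list, and 7 genes of the NCG and PI3K pathways; 31 higher genes and 1 lower gene with locus numbers were counted but not named. The members and gene lists were chosen with earlier results of these data known. No sequences are shown.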

Additional observations from a re-analysis of the deposited data

How the results depend on the processing

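All 640 genes higher in LN had a positive change in every alternative of the 12-library and 24-library fits, and all 16 lower genes a negative one in those alternatives. Counts higher and lower depended on the setting: 1218 and 432 with DESeq2 (1650 in all), 533 and 64 with all 24 libraries fitted together, 512 and 49 with the length trend removed, 506 and 43 without the 3 libraries high in FABP6, 575 and 8 with no filter on low counts, and 785 and 82 with smooth muscle and enterocyte covariates. Without LN 3 and LF 3 they were 92 and 0 (92 in all). With only the 6 libraries they were 0 and 0 with edgeR (0 in all), 1193 and 240 with DESeq2 (1433 in all), and 0 and 0 with limma voom (0 in all). Single omissions of an ileum library gave 133 (without LF 2) to 748 (without HN 2) calls in all, 130 to 717 higher and 2 (without LN 3) to 79 (without LN 1) lower; 128 genes were called in all 12, and 62 also in every other alternative of the 12-library and 24-library fits. The RLE normalization, limma voom on 12 libraries and a robust spread stayed within 1.5 times the count. The cause of these shifts was not tested.

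The replicate numbers are not stated to pair libraries, and the correlations of same-numbered LN and LF deviations were 0.03, 0.15 and 0.38; with the replicate block 452 genes were higher and 8 lower.

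DESeq2 called 26 genes for the difference between fibre levels, 32 for the difference between ileum and colon and 218 for HN against HF, where edgeR called 0; single omissions gave 0 to 1 for ileum against colon (1 without colon HN 1). Of 98 called genes examined singly, 37 kept their calls in every single omission and 0 reversed in any of the 26 alternatives; 20 of 29 uncalled ones were called in some alternative. Reversed log2 changes, all of genes not called in the comparison, were: ASS1, 1.17 without the libraries high in FABP6 and −2.62 to 1.16 over single omissions; ARG2, −0.00 with no filter, −0.01 with DESeq2 on 6 libraries, −0.42 with covariates and −0.26 to 0.30 over single omissions; OTC, −0.84, NAGS, −0.44, and ACTA1, 1.78, with covariates.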
